A study of Mus musculus with 8 samples.

Results

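The nuclear pore complex genes are 30 genes that encode nucleoporins or factors docked at the pore, taken from a mouse muscle RNA sequencing study as the rows of its expression table whose gene name equals a listed name. All 30 were found among the 47643 genes of the table. Quadriceps RNA was measured in 8 mice, C57BL/6 in the labels and backcrossed to C57BL/6J according to the methods, 4 labelled *Nup210*-/- and 4 labelled *Nup210*+/+, with 1 library per mouse and no injury or other treatment in the labels. The *Nup210*-/- line is a constitutive knockout in which exon 2 of *Nup210* was flanked by loxP sites and removed with Hprt-Cre, so every cell type of the muscle carries the deletion. The age and sex of the mice sequenced are not given in the sources used here. The question was whether the messages of the other pore proteins differ when Nup210 is deleted.

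Nuclear pore complexes are the channels of the nuclear envelope, through which proteins and RNAs move between nucleus and cytoplasm. Transmembrane nucleoporins anchor each pore in the membrane, an inner ring and a pair of outer rings built from the Y complex form its scaffold, and nucleoporins rich in phenylalanine-glycine repeats fill the channel. A basket reaches into the nucleus, and on the cytoplasmic side filaments help to release exported mRNA. Nup210 (also gp210) is a transmembrane nucleoporin whose level differs between tissues and that rises when cultured myoblasts form myotubes.

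The deleted stretch is shown because it decides what the *Nup210* values can tell. Exon 2 of the annotated 40-exon transcript lies on the minus strand at chr6:91101263-91101399 (GRCm38, GENCODE M21) inside the *Nup210* gene, which spans chr6:91013068-91116829, and it is entirely coding. It has 137 of the 7037 bases of the transcript, or 1.95%, which is 2 bases more than a whole number of codons. In the sequence of exon 2 below, read 5′ to 3′ from the annotated transcript, the capital at the start completes the codon begun in exon 1 and the capital at the end is the base left over for exon 3. The next line gives the last 30 bases of exon 1 joined to exon 3 up to the first in-frame stop, in capitals, 22 bases past the junction.
Nup210 exon 2: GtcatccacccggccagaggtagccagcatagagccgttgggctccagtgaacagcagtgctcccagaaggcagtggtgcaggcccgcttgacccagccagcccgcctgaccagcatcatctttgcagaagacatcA
Nup210 exon 1 end joined to exon 3: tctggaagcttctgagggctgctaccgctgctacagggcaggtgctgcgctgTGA
In that joined reading frame 63 codons precede the stop, against 1886 in the full transcript, and 37 exons follow the exon that holds it. The rest of the sequence is still counted in a transcript without exon 2, and the deposited values are per gene, so the table can show the amount of *Nup210* message but not whether exon 2 was in it.

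Expression was given as TPM (transcripts scaled to the same total in each library), which is divided by transcript length and by the library total, so levels of different genes can be compared within a library. Each library had 18185 to 19357 genes above 0. The read depth behind a value is unknown, so errors here are the SD over 4 mice. Markers of skeletal myofibers (*Acta1*, *Ckm*, *Myh4*, *Tnnt3* and *Ttn*) summed to 66659.4 to 78138.7 TPM, which places the tissue as labelled. *Nup210*+/+ replicate 2 stood apart. Its summed TPM of 5 granulocyte precursor markers was 368.54, against 0.13 to 2.12 in the other libraries, its sum of 6 dividing cell markers was 55.66 against 1.89 to 3.57, and its sum of 4 Y-linked genes was 9.07 against at most 0.7. *Nup210*+/+ replicate 4 had 0.01 TPM of *Xist*, the RNA that silences an X chromosome in female cells, against 36.45 to 49.37 in the other libraries. Replicate 2 of *Nup210*+/+, at 36.45 TPM, thus had *Xist* and Y-linked transcripts together. Replicate 4, with a Y-linked sum of 0.01 TPM, had almost none of either. Where leaving out either library changed which pore genes passed an unadjusted p of 0.05 or did not overlap, the values without it are given too.

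The message of *Nup210*, the deleted gene, was not lower in the libraries labelled *Nup210*-/-. In replicates 1 to 4 it was at 9.54, 10.79, 11.93 and 8.81 TPM in *Nup210*-/-, a mean of 10.3 ± 1.38 (SD, n = 4). In *Nup210*+/+ the corresponding levels were 5.71, 10.11, 9.19 and 6.71 TPM and averaged 7.93 ± 2.06 (SD, n = 4). The genotypes overlapped, since *Nup210*+/+ replicates 2 and 3 lay among the *Nup210*-/- libraries. A two-sided exact permutation test on TPM gave p = 0.143. The log2 fold change on scaled TPM was 0.44 (95% interval 0.11 to 0.775) and did not pass an adjusted p of 0.05 (limma adjusted p = 0.231). Without *Nup210*+/+ replicate 2 it was 0.56, the genotypes did not overlap on scaled TPM (as in 13.1% of all genes), and the limma adjusted p was 0.148. Without *Nup210*+/+ replicate 4 it was 0.42. The level of *Nup210* mRNA is thus no check of the labels, on which the directions that follow rest, and the protein, which the study examined, was not analysed here.

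Relative to the other transmembrane nucleoporins, *Nup210* was higher in the libraries labelled *Nup210*-/-, with no overlap. The ratio of *Nup210* to *Pom121* was 2.02, 2.01, 2.03 and 2.02 in *Nup210*-/- replicates 1 to 4 and 0.917, 1.84, 1.44 and 1.43 in *Nup210*+/+ replicates 1 to 4. The 4 *Nup210*-/- ratios were nearly equal, with an SD of 0.0067 on the log2 scale, while the *Nup210*+/+ ratios had an SD of 0.418. The mean log2 ratio differed by 0.57, a fold of 1.48 (two-sided exact permutation test over 70 labelings, p = 0.0286, the smallest that 4 against 4 libraries can give). *Nup210*+/+ replicate 1 had the lowest ratio, and without it the difference was 0.38 with the same p over 35 labelings. Without any 1 of the *Nup210*-/- libraries the difference stayed near 0.57 but the exact permutation p was 0.0571, above 0.05. Relative to *Ndc1* the ratio was 2.07, 1.75, 2.01 and 1.80 in *Nup210*-/- and 0.968, 1.5, 1.39 and 1.3 in *Nup210*+/+. This log2 difference was 0.58, a fold of 1.5 (two-sided exact permutation test, p = 0.0286), and the exact permutation p was 0.0571 without *Nup210*-/- replicate 1. Benjamini-Hochberg adjustment over both ratios left each exact permutation p at 0.0286, as it must for equal p-values, so it adds no support. Of the 75-base runs in *Pom121* transcripts, 10.7% also occur in *Nsun5* on the opposite strand, while *Ndc1* shares none with another gene. A ratio taken within a library does not depend on how libraries were scaled to each other.

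**Figure D1:**
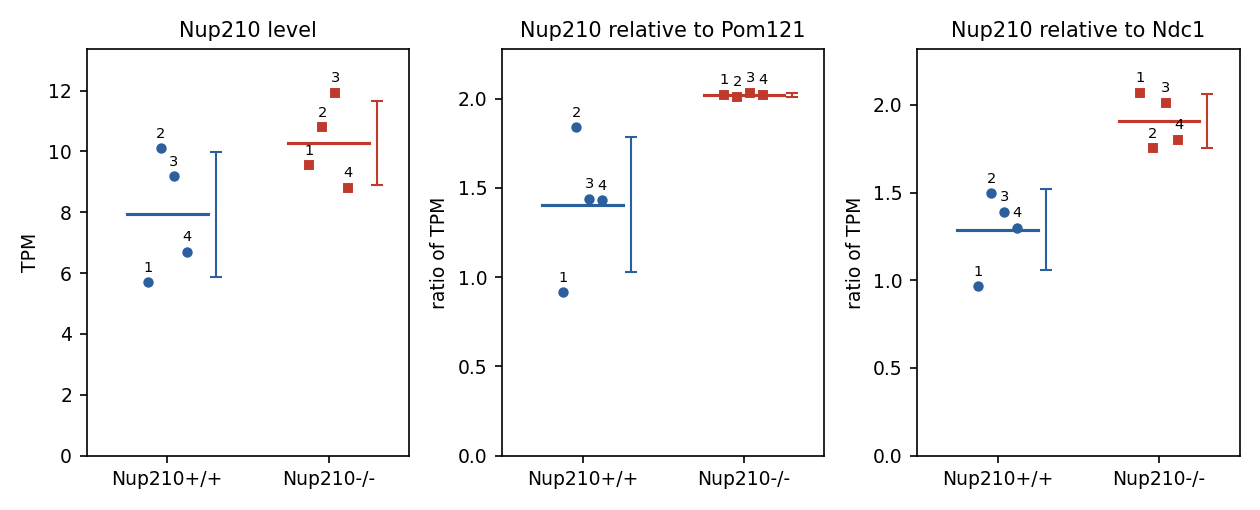
*Nup210* in TPM (left), and the ratio of *Nup210* to *Pom121* TPM (middle) and to *Ndc1* TPM (right), for each *Nup210*+/+ (blue circles) and *Nup210*-/- (red squares) library, numbered by replicate, with the mean (line) and SD (bar). The levels overlap between genotypes, while all *Nup210*-/- ratios lie above all *Nup210*+/+ ratios, the nearest pair for *Pom121* being 1.84 and 2.01.

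The same comparison was made against every other gene. The ratio of *Nup210* to the gene was higher in *Nup210*-/- without overlap for 26.7% of the 13536 genes compared, and for 12 of the 28 other pore genes tested, or 42.9%. The 12 were *Pom121*, *Ndc1*, *Nup43*, *Nup107*, *Nup133*, *Seh1l*, *Sec13*, *Nup35*, *Nup205*, *Nup54*, *Nup62* and *Nup50*, which belong to the transmembrane, outer and inner rings, the central channel and the basket. All these ratios share the same *Nup210* values, so they are not separate measurements. *Nup210* took 2.54 to 3.31% of the summed TPM of the 30 pore genes in *Nup210*-/- libraries and 1.56 to 2.47% in *Nup210*+/+ libraries. Ordered by level among the 30 genes, it was 10th to 13th in *Nup210*-/- and 15th to 23rd in *Nup210*+/+.

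The summed TPM of several cell type markers is given beside these ratios, with no test. The 5 myofiber markers summed to 72760.8 to 78138.7 TPM in *Nup210*-/- and 66659.4 to 70426 in *Nup210*+/+, and the 4 satellite cell markers to 10.92 to 13.58 and 9.35 to 11.31 TPM. Macrophage markers (5 genes) summed to 44.09 to 52.96 and 51.42 to 109.93 TPM, and fibroblast markers (3 genes) to 449.24 to 521.47 and 501.86 to 901.96 TPM. The ranges of the myofiber sum did not overlap, while those of the satellite cell, macrophage and fibroblast sums did. Taken singly, only *Tnnt3* of the 5 myofiber markers did not overlap, and 8.41% of all genes did not overlap on TPM as deposited. The mean was higher in *Nup210*-/- for 4 of these 5 and lower for 1, *Ttn*. These are sums of TPM as deposited, not scaled. The macrophage overlap was narrow, from 51.42 TPM in *Nup210*+/+ replicate 4 to 52.96 TPM in *Nup210*-/- replicate 2. Divided by the scaling factors of the libraries (0.954 and 0.987 for these), the macrophage sums no longer overlapped. The 6 T cell markers summed to 0.43 to 0.65 TPM in *Nup210*-/- and 0.74 to 3.27 in *Nup210*+/+, also without overlap. Of these markers 4 (*Cd3d*, *Cd3g*, *Cd8a* and *Lck*) were at 0 in at least 1 library. In bulk tissue, fewer cells of a type and less RNA per cell cannot be told apart. The part of these sums in the *Nup210* ratios was not tested.

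The other transmembrane genes did not pass the test. *Pom121*, which encodes a membrane nucleoporin needed for pore assembly, was at 4.72, 5.37, 5.87 and 4.36 TPM in *Nup210*-/- and 6.23, 5.50, 6.39 and 4.69 TPM in *Nup210*+/+. *Ndc1*, whose product anchors the scaffold in the membrane, was at 4.61, 6.15, 5.93 and 4.89 TPM and 5.90, 6.75, 6.61 and 5.16 TPM. In both genes the genotypes overlapped, and *Nup210*+/+ replicate 4 was the lowest library of its genotype. The log2 fold changes were −0.06 (95% interval −0.274 to 0.155) for *Pom121* and −0.07 (−0.288 to 0.142) for *Ndc1*. *Nup210l*, the paralog of *Nup210*, was almost undetected, at 0.03, 0.02, 0 and 0.04 TPM in *Nup210*-/- and 0.04, 0.05, 0.05 and 0.03 TPM in *Nup210*+/+. It ranked last of the 30 genes in every library, lay below the minimum mean of 0.5 TPM and was not tested. *Nup210* and *Nup210l* shared no run of 75 bases, the read length, with any other annotated gene, so no full-length read could match both exactly. Trimmed reads and matches with mismatches were not examined.

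**Figure D2:**
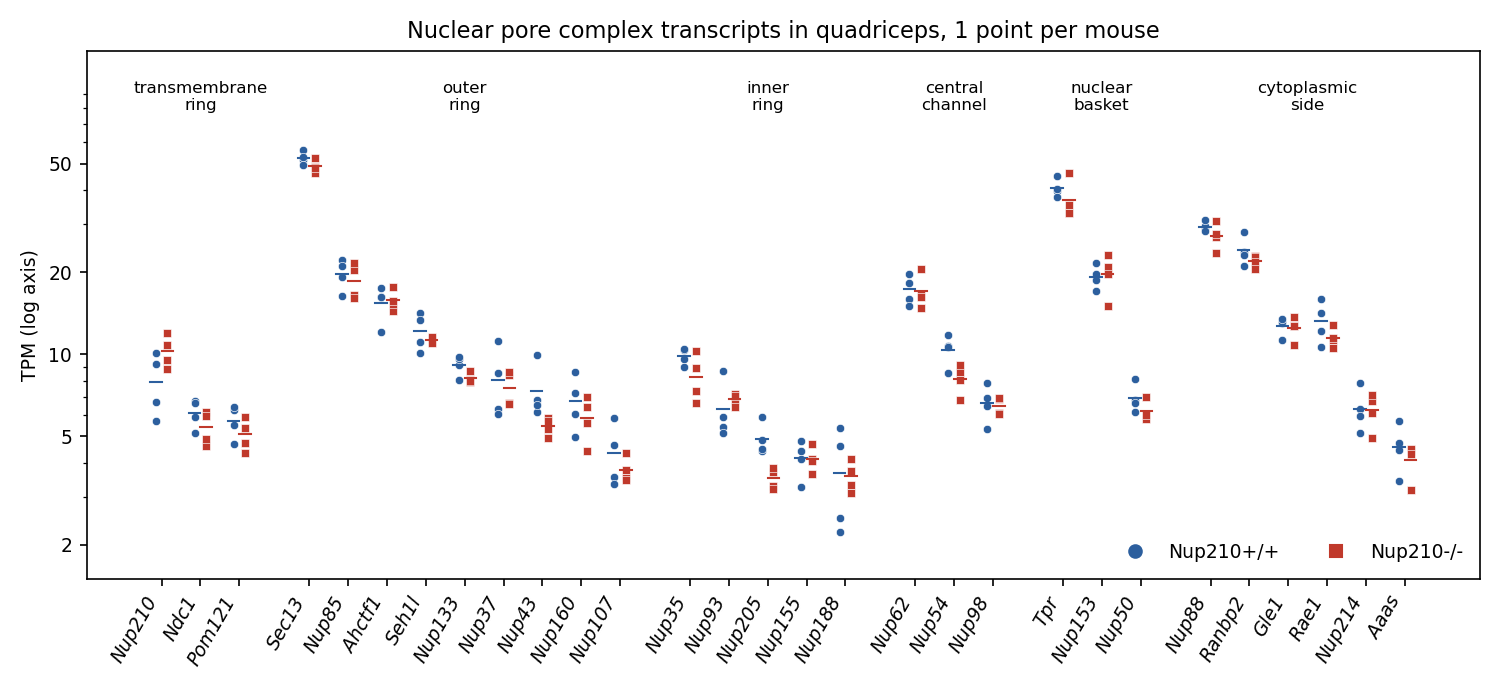
TPM on a log axis of the 29 pore genes with a mean of at least 0.5 TPM, by subcomplex, with 1 point per *Nup210*+/+ (blue circles) and *Nup210*-/- (red squares) library and lines at the genotype means. Levels run from *Sec13* near 50 TPM to *Nup188* below 4 TPM, and the points of the genotypes overlap for each gene except *Nup205* and *Nup43*.

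Across the 29 tested pore genes, mean levels spanned 14.0-fold and differed far more between genes than between genotypes. The median of the gene means was 8.66 TPM in the outer ring, 4.21 in the inner ring, 9.27 in the central channel, 19.5 in the basket and 12.5 on the cytoplasmic side, and the ranges of gene means in these groups overlapped. *Sec13* was highest and *Tpr* next in all 8 libraries. Sec13 is also part of the COPII coat of vesicles that leave the endoplasmic reticulum. The within-genotype SD of log2 values had a median of 0.153 over these genes, against 0.148 over the 7599 tested genes in the same range of levels.

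None of the 29 passed an adjusted p of 0.05 (limma with Benjamini-Hochberg adjustment over 14229 genes), where 0.112% of all genes did, 7 higher and 9 lower. The lowest adjusted p was 0.223, for *Nup205*. At an unadjusted p of 0.05 there were 2 of 29, or 6.9%, *Nup205* lower and *Nup210* higher, against 14.2% of all genes tested. On TPM as deposited the genes past it were *Nup43*, *Nup54* and *Nup205*, all lower, and *Nup210* was not among them. The genotypes did not overlap on scaled TPM in 1 of 29, *Nup205*, or 3.45%, against 9.38% of all genes. The median log2 fold change was −0.02, against −0.01 over all genes, 12 estimates were above 0 and 17 below, and 21 were within 0.1 of 0. Of these 21, 17 changed sign under another scaling, library weights or with a library left out, so they carry no direction. The 95% interval of the fold change lay within 1.5-fold in either direction for 28 of 29, or 96.6%, against 73.1% of all genes, and the exception was *Nup210*. The count depends on the pseudocount, which lowers the fold changes of low genes: with 0.1 in place of 1 it was 24, against 58.6% of all genes, and *Nup43*, *Nup93*, *Nup188* and *Nup205* also reached past 1.5-fold. Neither share of all genes was matched to the levels of the pore genes, so these contrasts do not set the pore genes apart.

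**Figure D3:**
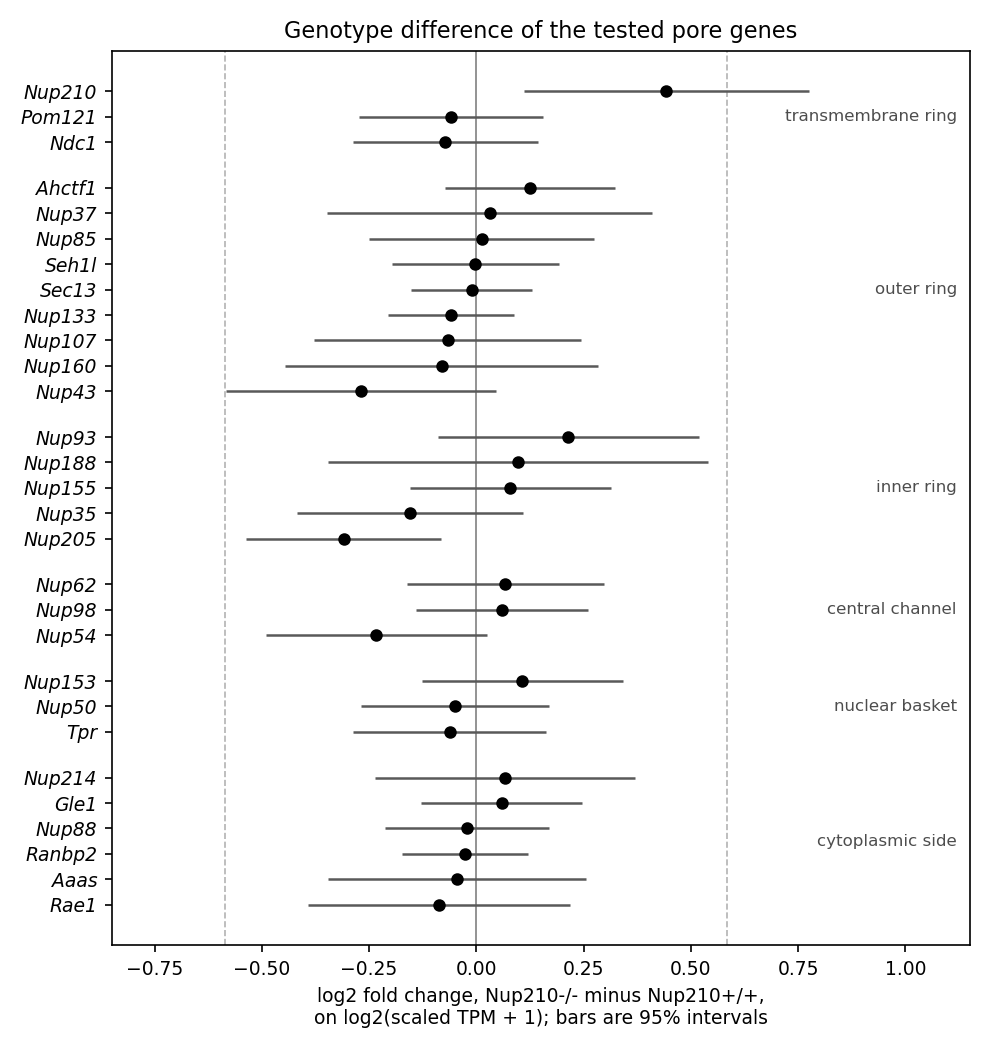
Log2 fold change (*Nup210*-/- minus *Nup210*+/+, on log2(scaled TPM + 1)) of the 29 tested pore genes by subcomplex, with 95% intervals from limma (bars) and a 1.5-fold change in either direction (dashed lines). The *Nup205* interval (−0.536 to −0.081) and the *Nup210* interval (0.11 to 0.775) leave out 0, and the *Nup210* interval alone reaches past 1.5-fold at this pseudocount.

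In the outer ring, no gene passed the test. *Sec13* was at 46.23, 52.53, 48.58 and 48.21 TPM in *Nup210*-/- and 51.57, 56.23, 53.07 and 49.63 TPM in *Nup210*+/+. *Nup107*, a stem component of the Y complex and the lowest of this ring, was at 3.52, 4.33, 3.76 and 3.46 TPM and 3.54, 5.85, 4.65 and 3.33 TPM. Both sets of levels overlapped, and both genes were highest in *Nup210*+/+ replicate 2. The log2 fold changes of the 9 genes ran from −0.27 for *Nup43* (limma adjusted p = 0.412) to 0.13 for *Ahctf1*, whose product (ELYS) brings the Y complex to chromatin at the end of mitosis. *Nup43* did not overlap between genotypes on TPM as deposited, as 8.41% of all genes did not, and its fold change was −0.13 without *Nup210*+/+ replicate 2. The other members, *Nup37*, *Nup85*, *Nup133*, *Nup160* and *Seh1l*, had fold changes between −0.08 and 0.03. Without *Nup210*+/+ replicate 4, *Nup133*, another stem component of the Y complex, did not overlap between genotypes, at a fold change of −0.08. In that setting 18.4% of all genes did not overlap, against 6.9% of the pore genes.

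In the inner ring, *Nup205* had the lowest unadjusted p of the 29 genes. Nup205 is a large scaffold protein that pairs with Nup93. Its message was at 3.30, 3.71, 3.83 and 3.20 TPM in *Nup210*-/-, with a mean of 3.51 ± 0.307 (SD, n = 4), and 4.40, 5.89, 4.83 and 4.50 TPM in *Nup210*+/+, where it averaged 4.91 ± 0.682 (SD, n = 4). Every *Nup210*+/+ library was above every *Nup210*-/- library, while 8.41% of all genes did not overlap on TPM as deposited. The two-sided exact permutation test on TPM gave p = 0.0286, the smallest that 4 against 4 libraries can give. That p restates the absence of overlap, for which *Nup205* was picked. Among the 15 pore genes with library values, the next lowest p of this test was 0.0857, for *Sec13*. *Nup43* is not among these 15 and was not given this test, but its genotypes also did not overlap on TPM as deposited. *Nup205* is thus not the only pore gene separated on that scale. The log2 fold change of *Nup205* was −0.31 (standard error 0.101, 95% interval −0.536 to −0.081), with an unadjusted p of 0.0132 and a limma adjusted p of 0.223. It was −0.23 without *Nup210*+/+ replicate 2, the library where *Nup205* was highest, and the genotypes still did not overlap (as in 13.1% of all genes).

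The other inner ring genes overlapped between genotypes. *Nup35* (also Nup53), a membrane-binding member and the highest of the ring, was at 8.89, 6.62, 10.25 and 7.36 TPM in *Nup210*-/- and 9.60, 10.41, 10.43 and 8.99 TPM in *Nup210*+/+. Of the 75-base runs in its transcripts, 34.7% also occur in other annotated genes, nearly all of them in *Gm4353*, and its exons overlap *Dusp19* on the same strand, so its level is uncertain. *Nup188*, a scaffold protein related to Nup205 and the lowest of the ring, was at 3.32, 4.14, 3.73 and 3.09 TPM and 2.23, 4.62, 5.36 and 2.51 TPM. It shares 5.32% of its runs with other gene models, most with the overlapping *Gm28038*. Here *Nup210*+/+ libraries fell on both sides of all *Nup210*-/- libraries, and the within-genotype SD of 0.314 on the log2 scale was the widest of the 29. *Nup93*, which links the inner ring to the channel, had a log2 fold change of 0.21 (limma adjusted p = 0.490). Without *Nup210*+/+ replicate 2 it was 0.36, with no overlap (as in 13.1% of all genes) and a limma adjusted p of 0.124. *Nup155*, the remaining member, had a fold change of 0.08.

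The central channel and the basket showed no gene past the test. *Nup62*, a channel nucleoporin with phenylalanine-glycine repeats, was at 16.52, 14.84, 20.53 and 16.26 TPM in *Nup210*-/- and 15.97, 19.79, 18.32 and 15.09 TPM in *Nup210*+/+. *Nup98*, a mobile repeat nucleoporin that also binds chromatin, was at 6.83, 6.10, 6.93 and 6.04 TPM and 6.92, 6.46, 7.83 and 5.34 TPM. The genotypes overlapped in both genes, and the fold changes were 0.07 and 0.06. *Nup54*, a channel partner of Nup62, had a log2 fold change of −0.23 (95% interval −0.491 to 0.026, limma adjusted p = 0.392), and 9.27% of its 75-base runs occur in *Gm15790* too. Without *Nup210*+/+ replicate 4 it was −0.28, at an unadjusted p of 0.0494 (limma adjusted p = 0.264).

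*Tpr*, which forms the filaments of the basket, was at 32.97, 46.12, 33.08 and 35.22 TPM in *Nup210*-/- and 39.81, 40.51, 45.19 and 37.73 TPM in *Nup210*+/+. *Nup210*-/- replicate 2 was the highest of all 8 libraries and the other *Nup210*-/- libraries were the lowest. Without replicate 2 of *Nup210*-/- the fold change was −0.16 (limma adjusted p = 0.365). The genotypes then did not overlap, which follows from leaving out that library, and 14.1% of all genes did not overlap either. *Nup50*, a basket protein that binds importin, was at 6.01, 6.97, 5.81 and 6.01 TPM and 6.79, 8.09, 6.65 and 6.12 TPM. Its fold change was −0.05, and that of *Nup153*, which holds the basket to the ring, was 0.11.

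On the cytoplasmic side fold changes ran from −0.09 for *Rae1* to 0.07 for *Nup214*, the narrowest range among the subcomplexes with more than 3 tested genes. *Nup88*, the partner of Nup214 and the highest of the group, was at 23.55, 27.02, 27.54 and 30.87 TPM in *Nup210*-/- and 28.80, 29.60, 31.06 and 28.32 TPM in *Nup210*+/+. *Aaas* (ALADIN), bound to the membrane through Ndc1, was at 3.18, 4.42, 4.50 and 4.29 TPM and 4.71, 5.69, 4.47 and 3.43 TPM. The genotypes overlapped in both, and *Aaas* was set apart at its lowest in *Nup210*-/- replicate 1. *Ranbp2*, which encodes the SUMO ligase of the cytoplasmic filaments, and *Gle1*, which activates the helicase that strips exported mRNA, had fold changes of −0.03 and 0.06.

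*Nup210*+/+ replicate 2 held the highest scaled level of all 8 libraries for 13 of the 29 tested pore genes, or 44.8%, against 19.1% of all genes tested. Of the 9 outer ring genes it was highest for 7, and of the 3 central channel genes for 0. The dividing cell and granulocyte precursor markers of this library are given above, and all 6 and all 5 of them, respectively, were highest in it. Their part in the pore gene levels was not tested. Without this library the median fold change was 0.05 over the 29 genes and 0.003 over all genes. In the remaining 7 libraries 3 of 29, *Nup210*, *Nup93* and *Nup205*, or 10.3%, did not overlap between genotypes, against 13.1% of all genes.

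**Figure D4:**
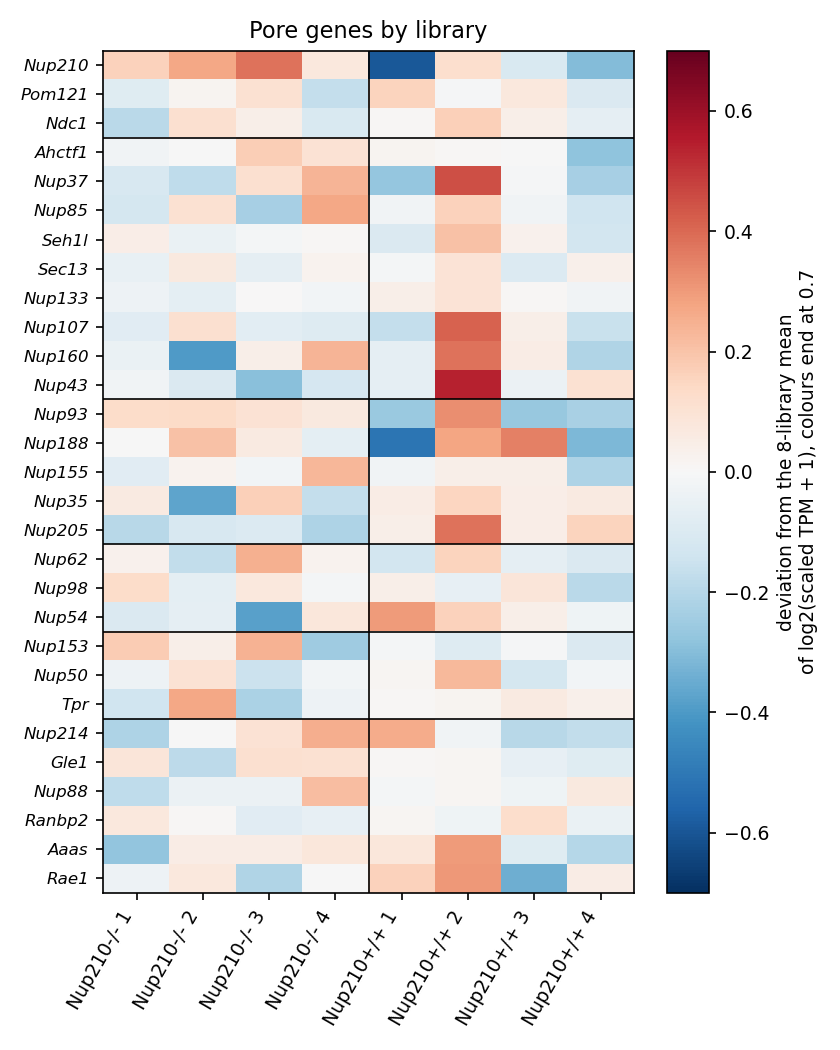
Deviation of log2(scaled TPM + 1) from the 8-library mean for the 29 tested pore genes (rows, grouped by subcomplex as in the plot of fold changes) in each library (columns). Red is above and blue below the mean, and the outer ring rows of *Nup210*+/+ replicate 2 are mostly red. The *Nup210* row is red in the *Nup210*-/- libraries and in *Nup210*+/+ replicate 2, and bluest in *Nup210*+/+ replicate 1.

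Genes that work with the pore were examined as 4 lists of 40 genes, of which 38 were tested. None passed an adjusted p of 0.05 (lowest limma adjusted p = 0.196). At an unadjusted p of 0.05 there were 5 lower and 1 higher, or 15.8%, beside 14.2% of all genes, and 4 of 38, or 10.5%, did not overlap on scaled TPM, beside 9.38% of all genes. Among 20 mRNA export genes 2 were past it, *Cetn3*, a centrin of the TREX-2 complex at the basket, with a fold change of −0.25, and *Nxt2*, a cofactor of the export receptor, with −0.22 and no overlap. Among 5 tested SUMO enzymes and 3 further pore proteins there were 0 at an unadjusted p of 0.05 and 0 at an adjusted one.

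Envelope remodelling genes act in pore assembly and quality control. Of these, 4 of 10 (40%) were past an unadjusted p of 0.05, beside 14.2% of all genes. On scaled TPM 3 of 10 (30%) did not overlap, beside 9.38% of all genes. These counts are small and their difference from the shares of all genes was not tested. *Vps4b*, an ATPase that takes ESCRT-III filaments apart, was at 12.1, 13.89, 15.28 and 13.39 TPM in *Nup210*-/- and 15.64, 19.34, 19.53 and 18.08 TPM in *Nup210*+/+, with no overlap and a log2 fold change of −0.30 (limma adjusted p = 0.196). *Reep4*, which with Reep3 clears endoplasmic reticulum from mitotic chromosomes, was at 1.23, 1.41, 1.33 and 1.3 TPM and 1.69, 3.38, 2.25 and 1.61 TPM, a fold change of −0.39. It too did not overlap, with its highest level in *Nup210*+/+ replicate 2, the library with 55.66 TPM of dividing cell markers. The part of that library in the fold change was not tested. *Reep3* had a fold change of −0.26, and *Tor1aip1* (LAP1), a cofactor of the envelope ATPase torsin A, was higher by 0.16 on the log2 scale. *Chmp7*, the ESCRT-III protein that is recruited to the envelope, was the other gene without overlap on scaled TPM, higher by 0.12 with an unadjusted p of 0.0583. Its deposited levels overlapped, at 25.48, 25.92, 27.62 and 25.93 TPM in *Nup210*-/- and 26.01, 24.69, 27.4 and 24.79 TPM in *Nup210*+/+.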

How the data were processed

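The authors isolated polyadenylated RNA from snap-frozen quadriceps, made directional libraries, trimmed 75-base single-end reads with cutadapt 2.3, aligned them to mm10 with STAR 2.7.0d and estimated expression with RSEM 1.3.1 on Ensembl annotation. The deposited values are TPM per gene and library; each library sums to the same total, and depth is unknown. TPM were scaled by the median of ratios over 15225 genes above 0 in all libraries. Genotype was the sole term of a limma fit (version 3.58.1, R 4.3.3; lmFit, eBayes with trend) on log2(scaled TPM + 1) for 14229 genes averaging 0.5 TPM or more, and p-values were adjusted over these by Benjamini-Hochberg. The fold change understates changes of low genes. Ratios, and the TPM of the 15 pore genes given with library values, were compared with two-sided exact permutation tests. The members and lists were chosen with earlier results of these data known.

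Among the 30 genes, every library value is given for the transmembrane genes, the highest and lowest gene of each other subcomplex, and genes past an unadjusted p of 0.05 or without overlap on scaled TPM. The other pore genes are given by fold changes, and the lists of genes that work with the pore by counts and the genes past an unadjusted p of 0.05. *Chmp7*, and the genes given with library values from these lists, were picked after their values were seen. Marker sums were taken for 11 cell types. Loci and shared 75-base runs are from GENCODE M21, a newer annotation than that of the authors. In it, 16 of the 30 genes shared no such run with another gene, and 5 shared over 5%. The exons of 5 overlap another gene on the same strand. Replicates are separate mice. At most 201 tested genes had identical TPM in a pair of libraries. Same-numbered libraries of the 2 genotypes correlated at −0.033 to 0.086 in their deviations, so the numbers were not taken as pairs. Alternatives were another pseudocount, other filters, unscaled TPM, upper-quartile scaling, library weights, the replicate number as a block and each library left out.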

Additional observations from a re-analysis of the deposited data

Results flagged for a closer look

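In 86 groups of 4 libraries (by genotype, 60 of the TPM of the 30 genes, 22 of the sums of the 11 marker lists and 4 of the 2 ratios of *Nup210*), 5 had a library set apart from the other 3 by Dixon's 95% criterion, where chance flags about 1 in 20, or 4.3. The level of *Aaas* in *Nup210*-/- replicate 1 was 3.18 TPM, against 4.29 to 4.5 TPM in the other *Nup210*-/- libraries. The myofiber markers summed to 78138.7 TPM in *Nup210*-/- replicate 3, against 72760.8 to 73663.5 TPM. The other 3 were in *Nup210*+/+ replicate 2, whose granulocyte precursor markers summed to 368.54 TPM (against 0.31 to 2.12), dividing cell markers to 55.66 TPM (2.5 to 3.57) and B cell markers to 2.77 TPM (0.38 to 0.63).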

How the results depend on the processing

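No pore gene passed an adjusted p of 0.05 under any of the 15 alternatives of the limma fit. *Nup210* stayed higher in *Nup210*-/- (log2 fold change 0.32 to 0.58, adjusted p 0.0967 to 0.413) and *Nup205* lower (−0.38 to −0.23, adjusted p 0.193 to 0.416), and 24 to 28 of the 29 intervals lay within 1.5-fold. The count over all genes, 16, became 0 with a mean TPM minimum of 0.1, upper-quartile scaling or the replicate block (2244, 2071 and 1850 at an unadjusted p of 0.05), 1 with no filter, 84 with library weights and 0 to 10 with each library left out (0 without *Nup210*-/- replicate 1, 3 or 4, with 1575, 1644 and 1644 at an unadjusted p of 0.05). Pore genes at an unadjusted p of 0.05 numbered 4 of 29 with library weights (17.4% of all genes), and 2 to 4 with a library left out (11.0 to 18.8% of all genes), 4 without *Nup210*-/- replicate 4 (11.5%). Those without overlap numbered 2 on TPM as deposited and 2 with upper-quartile scaling, (8.41 and 9.37% of all genes), and 1 to 5 with a library left out (12.2 to 18.4% of all genes): 5 without *Nup210*-/- replicate 4, 3 without *Nup210*-/- replicate 2 or *Nup210*+/+ replicate 2, and 2 without replicate 1 of *Nup210*-/- or replicate 4 of *Nup210*+/+. On TPM as deposited the median was −0.11 over pore genes and −0.08 over all genes.

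With the replicate number as a block, a number the libraries share with no other tie (1 of 4 correlated best with its own number), the ratio differences stayed at 0.567 for *Pom121* and 0.582 for *Ndc1*, with the sign-flip p at 0.125, the smallest possible over 16 flips. The block changed no other call on the pore genes. With a library left out they were 0.375 to 0.710 and 0.450 to 0.660, with exact permutation p of 0.0286 to 0.0571 (0.0571 without any 1 *Nup210*-/- library for *Pom121* and without replicate 1 for *Ndc1*).

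Of the 28 tested pore genes besides *Nup210*, 17 changed sign, in 39 of 420 values, all with a main fold change within 0.1 of 0. With upper-quartile scaling *Sec13* was 0.0145, *Nup88* 0.00350 and *Seh1l* 0.0223, and with library weights *Nup107* was 0.0129, *Seh1l* 0.0436 and *Nup214* −0.0542. On TPM as deposited *Nup62* was −0.0222, *Nup98* −0.0230, *Nup37* −0.0537, *Nup85* −0.0779, *Nup214* −0.0156 and *Gle1* −0.0288. With a library left out, *Sec13* ran from −0.0445 to 0.0208, *Nup107* from −0.133 to 0.0609, *Nup188* from −0.0556 to 0.232, *Nup62* from −0.00354 to 0.136, *Tpr* from −0.162 to 0.00184, *Nup50* from −0.0979 to 0.0178, *Nup88* from −0.0980 to 0.0333, *Aaas* from −0.121 to 0.0474, *Nup37* from −0.0536 to 0.187, *Nup85* from −0.0751 to 0.0919, *Nup160* from −0.174 to 0.0372, *Seh1l* from −0.0467 to 0.0681, *Nup214* from −0.00825 to 0.164, *Ranbp2* from −0.0557 to 0.0104 and *Rae1* from −0.215 to 0.000816. The cause was not tested.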
